A study of Homo sapiens with 6 samples.

Results

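Expression of 4 long noncoding RNAs, MALAT1, NEAT1, OIP5-AS1 and KCNQ1OT1, was compared between cells depleted of Aurora kinase B and control cells. They were found by gene name in the deposited expression table, where they make up 4 of 50868 genes. The cells were of the CUTLL1 line, derived from a human T-cell leukaemia (T-ALL). Both arms of 3 biological replicates received a lentiviral shRNA, directed against AURKB in 1 arm (shAURKB) and a control labelled shGFP in the other. All 6 cultures were under puromycin selection and were harvested at 48 h for total RNA. How many hairpins were used is not given in the sources used here, and a single line was studied.

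Library totals ran from 10154187 to 11922979 counts. AURKB itself was at 101 ± 5.10 CPM (counts scaled to a common library size; SD, n = 3) in shGFP and 39.9 ± 3.93 in shAURKB, a log2 fold change of -1.35 ± 0.08 (SE; edgeR quasi-likelihood test, adjusted p = 2.54e-04). All 9 T-cell markers were detected, and together they summed to 2109 to 2229 CPM in shGFP and 2334 to 2463 CPM in shAURKB. Of 3 B-cell markers 1 was at 0 throughout, and the sums were 20.7 to 22.6 CPM in shGFP and 15.8 to 19.6 CPM in shAURKB. Neither range overlapped between the arms, and the part of these shifts in the results was not tested. Markers of fibroblasts summed to 19.8 CPM in shGFP replicate 1 and to at most 2.04 CPM elsewhere, with 3 of 6 at 0 in all libraries. Epithelial markers summed to 9.31 CPM in that library and to at most 1.17 CPM in the others.

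The 4 RNAs are transcribed by RNA polymerase II but do not encode known proteins. NEAT1 is the scaffold of paraspeckles, nuclear bodies built on its long isoform by proteins such as NONO and SFPQ, and the shorter isoform shares its start. MALAT1 lies next to NEAT1 on the chromosome and accumulates in nuclear speckles, where splicing factors are stored. OIP5-AS1, also called cyrano, runs opposite to the gene OIP5 and is known for a conserved, nearly perfect site for the microRNA miR-7 and for binding the RNA-stabilizing protein HuR. KCNQ1OT1 is an unspliced antisense transcript made from the paternal copy of an imprinted region, where it is linked to silencing of neighbouring genes in cis.

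The ends of MALAT1 and of long NEAT1 are shown because both RNAs end in a triple helix in place of a poly(A) tail, so their capture depends on how a library selects RNA, which is not given in the sources used here. Capitals mark the stretches of at least 10 bases that the ends share, a U-rich stretch (written with T) and the A-rich end that pairs with it in the helix. The coordinates are GRCh38, plus strand, at chr11:65506007-65506116 for MALAT1 and chr11:65445431-65445540 for NEAT1, and each stretch was read from GENCODE release 29 transcripts.
MALAT1 end: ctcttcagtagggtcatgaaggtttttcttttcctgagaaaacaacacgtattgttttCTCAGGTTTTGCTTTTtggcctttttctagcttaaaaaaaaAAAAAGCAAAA
NEAT1 end: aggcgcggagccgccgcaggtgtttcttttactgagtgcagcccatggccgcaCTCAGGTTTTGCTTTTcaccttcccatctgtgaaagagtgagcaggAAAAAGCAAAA
Both stretches, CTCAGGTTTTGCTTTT and AAAAAGCAAAA in this order on the strand of the RNA, occurred within 110 bases in 2 of 201525 GENCODE transcripts, and these were the MALAT1 and NEAT1 transcripts shown. The longest run of A was 13 bases in the MALAT1 stretch and 5 in the NEAT1 stretch. The tRNA-like RNAs cut off just downstream were not analysed here.

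The miR-7 site of OIP5-AS1 is shown with its microRNA because it is the best-known functional element of this RNA. It lies at chr15:41300574-41300599 (GRCh38, plus strand), in exon 4 of 4 of the longest transcript, at positions 2869 to 2894 of 8829. Capitals mark bases 2 to 8 of the microRNA (its seed, RefSeq GRCh38.p14) and their match in the site.
OIP5-AS1 site: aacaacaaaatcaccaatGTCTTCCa
hsa-miR-7-5p: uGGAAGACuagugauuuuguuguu
Of the 24 bases of the microRNA, 22 can pair with the site, in runs of 14 and 8 bases. The seed match GTCTTCC occurred 3 times in this transcript and at least once in 2363 of 29566 GENCODE long noncoding transcripts (8.0%), searched on the RNA's own strand. The run of 14 bases occurred in 1 of them. These matches describe the sequence and are no measurement of miR-7.

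The group name, abundant nuclear long noncoding RNAs, described 3 of the RNAs by reads, less so by deposited level per length, and not KCNQ1OT1. By mean CPM, which favours long transcripts, MALAT1 ranked 11, NEAT1 18 and OIP5-AS1 27 among 2061 tested long noncoding genes, whereas KCNQ1OT1 ranked 643. By the deposited FPKM, a level per length, MALAT1 ranked 197, OIP5-AS1 334, NEAT1 442 and KCNQ1OT1 2059 of the same genes. The mean deposited levels over the 6 libraries were 11.8 FPKM for MALAT1, 7.24 for OIP5-AS1, 5.45 for NEAT1 and 0.0629 for KCNQ1OT1. The median of all tested genes was 3.91 FPKM. MALAT1 lay above 79.8% of tested genes on this scale, OIP5-AS1 above 68.2%, NEAT1 above 60.0% and KCNQ1OT1 above 0.189%. These ranks and shares rest on the lengths behind the deposited FPKM, for MALAT1 16890 bases against a gene span of 8755. With its longest transcript as the length, the level of MALAT1 was 22.9, and the ranks were not recomputed. KCNQ1OT1 was thus among the lowest tested genes per base of its 91667-base transcript. The order of the first 3 was not the same in every library, since OIP5-AS1 was at 2.75 FPKM in shGFP replicate 2 and 2.57 in shAURKB replicate 1, below NEAT1 in both. Location in the nucleus was not measured.

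All 4 RNAs passed the filter on low counts, and 0 of 4 differed between the arms at an adjusted p below 0.05 (edgeR), against 23.3% of the 14818 tested genes. At an unadjusted p below 0.05 the count was 1 of 4, NEAT1, against 37.0% of tested genes. DESeq2 called 1 of 4, again NEAT1, and limma-voom called 0. All 4 estimates were below 0, but those of MALAT1 and OIP5-AS1 were not when certain single libraries were left out. In bulk RNA, fewer cells with an RNA and less of it per cell cannot be told apart.

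NEAT1 (ENSG00000245532; chr11:65422774-65445540, plus strand) was lower in each shAURKB library than in any control. Its level was 183, 169 and 176 CPM in shGFP replicates 1 to 3 and 130, 127 and 66.5 CPM in shAURKB replicates 1 to 3. The arms did not overlap, as was the case in the lower direction for 20.9% of tested genes, and shAURKB replicate 3 stood lowest by a wide margin. The means were 176 ± 7.11 and 108 ± 36.0 CPM (SD, n = 3). The log2 fold change was -0.70 ± 0.23 (SE), with a 95% interval of -1.25 to -0.16 that was not adjusted for multiple testing and an adjusted p of 0.0690 (edgeR). On a linear scale, NEAT1 was at 61.4% of control, with an interval of 42.0% to 89.7%.

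The NEAT1 call turned on shAURKB replicate 3 and on the tool. Without that library the difference was smaller, -0.45, but passed the test (edgeR, adjusted p = 0.00687). DESeq2 gave the same -0.70 with an adjusted p of 0.00608. Over its alternatives the estimate ran from -0.86 to -0.45 and the adjusted p from 0.00608 to 0.153. The raw counts behind these values were 701 to 2128 per library, so counting error (a coefficient of variation of 2.54%) was far below the 33.3% among shAURKB libraries. Counts per gene do not separate the short isoform from the long one that builds paraspeckles.

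MALAT1 (ENSG00000251562; chr11:65497762-65506516, plus strand) did not pass the test. It was at 153, 230 and 239 CPM in the shGFP libraries and at 187, 191 and 199 CPM in the shAURKB libraries. The controls spanned the whole range, with replicate 1 lowest of all 6 libraries and replicates 2 and 3 highest, so the arms overlapped. The means were 208 ± 47.2 and 192 ± 6.14 CPM, and the log2 fold change was -0.11 ± 0.16 (edgeR, adjusted p = 0.649). The 95% interval of -0.48 to 0.26 corresponds to 71.9% to 119% of control.

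The MALAT1 value rested on which controls were used. Without shGFP replicate 1 the log2 fold change was -0.29 (edgeR, adjusted p = 0.0147), and without shGFP replicate 3 it was 0.01 (adjusted p = 0.985). The library labelled shGFP replicate 1 was also the one with the highest sums of fibroblast and epithelial markers, whose part in the MALAT1 value was not tested. A second gene entry, AP000769.1, lies inside MALAT1 at chr11:65502034-65503622 and held 16.9% to 25.8% of the reads of both entries together, with the largest share in shGFP replicate 1. With its reads added to those of MALAT1, an alternative chosen after seeing the data, the log2 fold change was -0.05 (adjusted p = 0.803). AP000769.1 alone was at 53.4, 47.6 and 48.7 CPM in shGFP and 54.2, 56.1 and 59.8 CPM in shAURKB, a log2 difference of 0.18 ± 0.07 that missed the threshold (adjusted p = 0.0999).

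Set against each other within a library, MALAT1 and NEAT1 need no scaling between libraries. The ratio of MALAT1 reads to NEAT1 reads was 0.838, 1.36 and 1.36 in shGFP and 1.44, 1.5 and 3.0 in shAURKB. All 3 shAURKB ratios lay above all 3 control ratios, by a small margin in replicates 1 and 2 and by a large one in replicate 3. Among single tested genes, the arms did not overlap for 20.9% in the lower direction and 21.7% in the higher. The share of ratios that separate the arms over other pairs of tested genes was not computed. For every other pair of the RNAs the arms overlapped. The ratio of NEAT1 to KCNQ1OT1, for example, was 24.9, 24.9 and 32.2 in shGFP and 21.9, 27.8 and 14.9 in shAURKB. The ratio of MALAT1 to NEAT1 uses the NEAT1 counts reported above, so it is no independent test of the NEAT1 difference. MALAT1 and NEAT1 are 52222 bases apart on the same strand.

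OIP5-AS1 (ENSG00000247556; chr15:41283990-41309737, plus strand) varied more between replicates than between arms. It was at 174, 41.1 and 151 CPM in shGFP replicates 1 to 3 and at 39.7, 194 and 57.7 CPM in shAURKB replicates 1 to 3. Both arms held high and low libraries: shGFP replicates 1 and 3 and shAURKB replicate 2 were high, and the other 3 were low. The highest value was 4.90 times the lowest. The means, 122 ± 71.1 and 97.2 ± 84.5 CPM, differed by a log2 fold change of -0.33 ± 0.70 (edgeR, adjusted p = 0.768). The 95% interval of -1.98 to 1.31 spans 25.4% to 248% of control, so neither a large fall nor a large rise was detectable against this spread.

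The spread of OIP5-AS1 was far larger than counting error. Its counts were 424 to 1992 per library, for which counting error alone gives a coefficient of variation of 2.90%, against 58.2% in shGFP and 87.0% in shAURKB. The SD of its log2 CPM within arms was 1.17, which ranked 36 among the 9891 genes with a mean of at least 10 CPM, where the median was 0.0936. NEAT1 followed at 0.39 (rank 426) and MALAT1 at 0.25 (rank 1002). Leaving out single libraries moved the OIP5-AS1 estimate from -1.33 without shAURKB replicate 2 to 0.05 without shAURKB replicate 1, with no adjusted p below 0.187.

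KCNQ1OT1 (ENSG00000269821; chr11:2608328-2699994, minus strand) was measured from few reads. It had 78, 70 and 66 counts in shGFP and 68, 47 and 47 in shAURKB, or 7.36, 6.79 and 5.45 against 5.95, 4.58 and 4.46 CPM. The arms overlapped, since shAURKB replicate 1 lay above shGFP replicate 3. The means were 6.54 ± 0.980 and 5.0 ± 0.830 CPM and the log2 fold change was -0.38 ± 0.18, with a 95% interval of -0.81 to 0.05 (edgeR, adjusted p = 0.182). Counting error alone gives a coefficient of variation of 12.6%, close to the 15% and 16.6% found within the arms. Its host gene KCNQ1, a potassium channel gene on the opposite strand that spans the whole of KCNQ1OT1, had 0 counts in all 6 libraries, which allows at most 0.295 CPM in any of them (3 counts per library, counting error only). How reads in the overlap of KCNQ1 and KCNQ1OT1 were assigned is not given in the sources used here, so this 0 and its limit hold for reads assigned to KCNQ1, not for its expression.

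**Figure D1:**
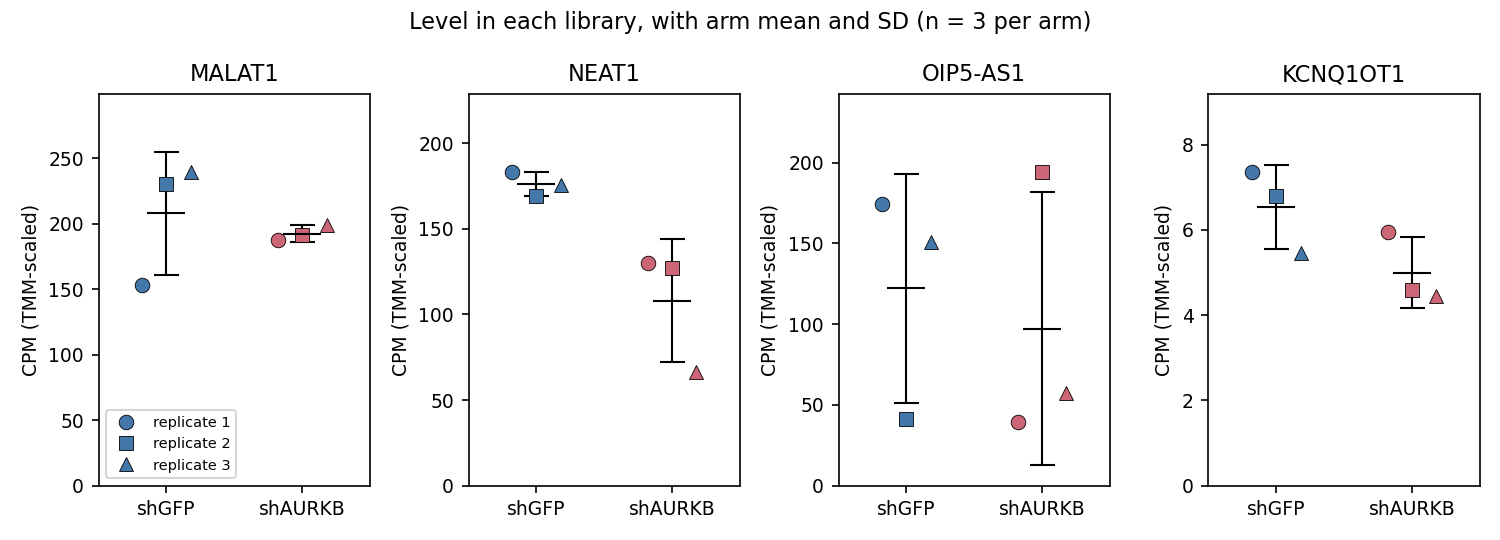
Level of MALAT1, NEAT1, OIP5-AS1 and KCNQ1OT1 in each library, in TMM-scaled CPM on axes from 0 that differ between panels. Each point is 1 library (shape gives the replicate number), and the bars give the arm mean and SD of 3 libraries. NEAT1 shows the arms apart (169 to 183 CPM against 66.5 to 130 CPM), whereas the arms overlap for the other RNAs and OIP5-AS1 splits within each arm.

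**Figure D2:**
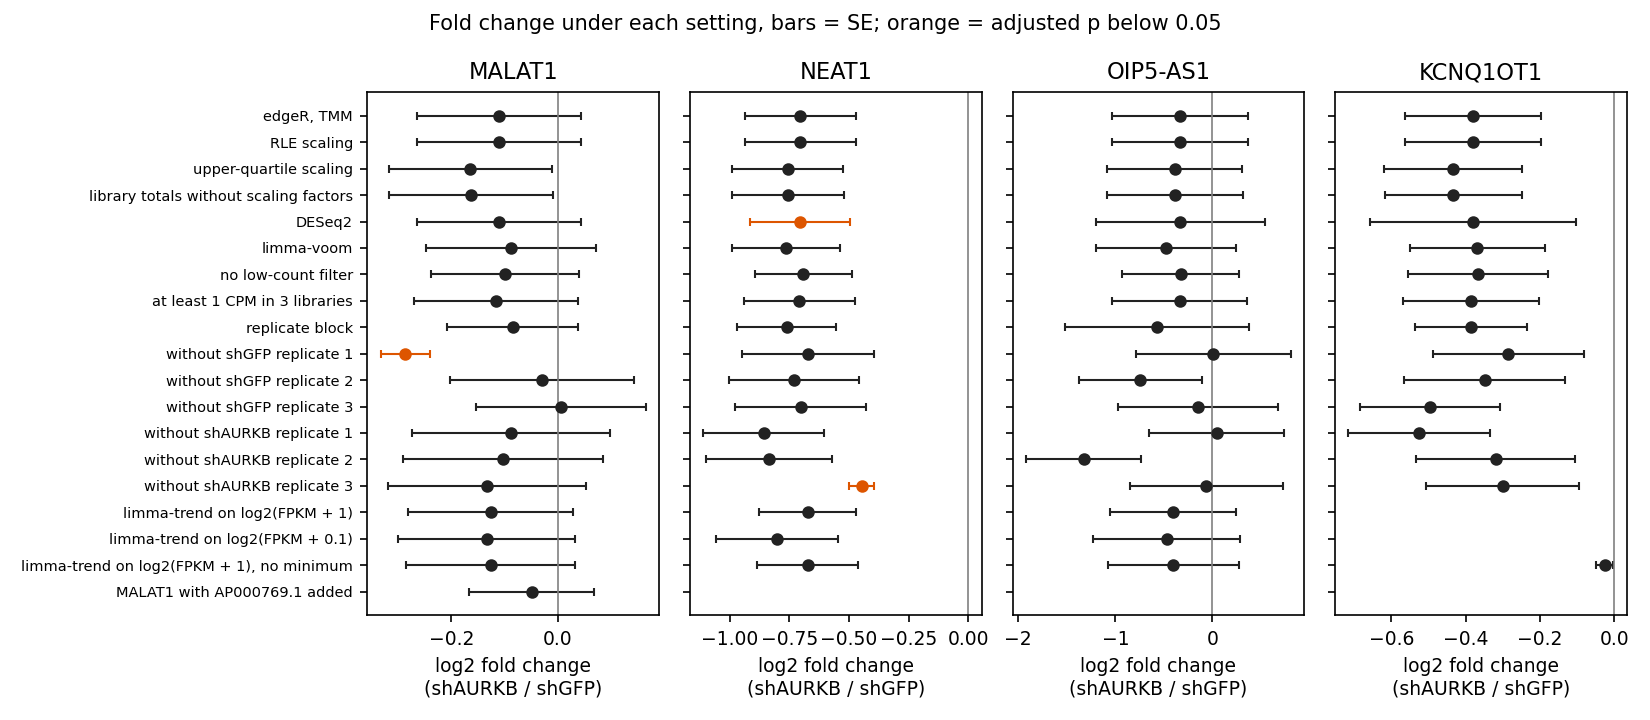
Log2 fold change of shAURKB over shGFP for each RNA under each setting, with SE bars. Orange points have an adjusted p below 0.05: NEAT1 with DESeq2 (-0.70) and without shAURKB replicate 3 (-0.45), and MALAT1 without shGFP replicate 1 (-0.29). MALAT1 and OIP5-AS1 crossed 0 when single libraries were left out, by at most 0.05, and KCNQ1OT1 has no point where a minimum FPKM was required.

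Genes whose profile over the 6 libraries was most like that of each RNA were found by the root mean square difference of log2 CPM, each gene centred on its own mean, among 9446 genes. This is a description over 6 libraries that share their depth and scaling. For OIP5-AS1 the nearest were CIPC at 0.196, ZKSCAN1 at 0.396 and SLFN11 at 0.504. The root mean square of OIP5-AS1 about its own mean was 0.979, so CIPC followed most of its spread and SLFN11 less of it.

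CIPC, which encodes a partner of the circadian regulator CLOCK, was at 35.1, 6.70 and 35.3 CPM in shGFP and 6.39, 33.7 and 9.10 CPM in shAURKB. ZKSCAN1, a zinc-finger gene, was at 113, 52.5 and 119 CPM and 39.4, 119 and 35.1 CPM in the same order. SLFN11, which encodes a factor known for sensitizing cells to DNA damage, was at 173, 59.1 and 159 CPM and 103, 184 and 62.1 CPM. All 3 were highest in the libraries in which OIP5-AS1 was high and lower in the rest, a likeness for which they were picked.

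The 3 genes nearest to NEAT1 were ZNF808 (0.134), GLIPR1 (0.144) and RIMKLB (0.154), against 0.499 for NEAT1 about its own mean. For MALAT1 they were UBE3A (0.0612), YTHDF3 (0.0621) and SLC20A2 (0.0696), against 0.211. For KCNQ1OT1 they were FAM8A1 (0.0829), ELMOD3 (0.0829) and ATXN7 (0.0850), against 0.260.

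**Figure D3:**
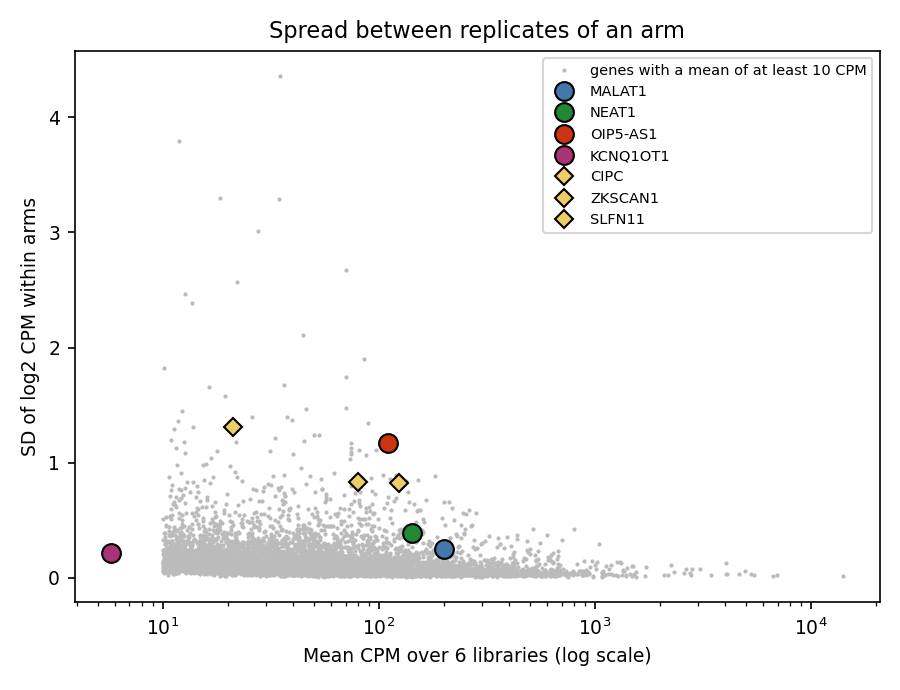
SD of log2 CPM within arms against mean CPM over 6 libraries (log axis). Grey points are genes with a mean of at least 10 CPM, circles the 4 RNAs and diamonds the 3 genes most like OIP5-AS1. OIP5-AS1 sits at 1.17, far above the median of 0.0936, with NEAT1 at 0.39 and MALAT1 at 0.25 below it. KCNQ1OT1, with a mean under 10 CPM, lies left of the grey points.

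Genes for proteins that build paraspeckles with NEAT1 were tested as RNA, with no measure of protein, here and in the lists below. They had 36 entries (MATR3 is listed under 2 identifiers). Of these, 7 were higher in shAURKB and 3 were lower (edgeR, adjusted p below 0.05), against 12.5% and 10.9% of all tested genes. The largest changes were in TARDBP, the RNA-binding protein TDP-43, at 77.9 CPM in shGFP and 105 CPM in shAURKB (log2 fold change 0.44 ± 0.08), and in SMARCA4, the chromatin remodeller BRG1 (0.40 ± 0.03, from 352 to 463 CPM). The RNAs of the core proteins of the body rose less or did not pass the test. NONO was at 455 to 480 CPM in the controls and 518 to 536 CPM in shAURKB (0.17 ± 0.03, adjusted p = 0.0116), and PSPC1 rose by 0.26 ± 0.05 (adjusted p = 0.00995). SFPQ, which encodes the partner of NONO that the long isoform needs for its stability, differed by 0.08 (edgeR, adjusted p = 0.0795). The 3 that fell were SRSF10 (-0.24), HNRNPF (-0.12) and HNRNPUL1 (-0.18). The count of 3 was 1 in the fits without single libraries, except 2 without shGFP replicate 3. The median of the list was 0.08, beside 0.00 for all tested genes.

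Nuclear speckle genes, whose proteins share the compartment of MALAT1, included 2 that rose, 5 that fell and 28 that did not pass the test, with a median of -0.02. The shares of all tested genes were 12.5% higher and 10.9% lower. The 5 became 3 without shAURKB replicate 1 or 3 and 1 without shAURKB replicate 2. U2AF2, a subunit of the factor that recognises the 3′ splice site, rose from 401 to 413 CPM in shGFP to 551 to 569 CPM in shAURKB (0.47 ± 0.03, edgeR adjusted p = 2.76e-04). The kinase gene CDK12 rose by 0.28. SRSF11, an SR-family splicing factor, fell from 315 to 346 CPM to 254 to 281 CPM (-0.28 ± 0.05, adjusted p = 0.0104), and LUC7L3, SRPK2, CLK2 and PNISR fell by 0.28, 0.24, 0.23 and 0.19. SON and SRRM2, which encode the scaffold proteins of the speckle, differed by 0.03 and -0.01 and did not pass the test.

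A list of 18 tested genes held those that process the MALAT1 end and those that modify or bind MALAT1 RNA. Of these, 4 rose, 0 fell at an adjusted p below 0.05 and 14 did not pass the test (edgeR), and the median was 0.17. Of all tested genes, 12.5% rose. The 4 became 2 without shGFP replicate 1 or shAURKB replicate 3, 1 without shGFP replicate 3, and 2 under upper-quartile scaling, plain library totals or the replicate block. Of the 4, 3 encode subunits of RNase P, the enzyme that cuts the MALAT1 end shown above. The other subunits tested, POP4, POP5, RPP14, RPP21, RPP30 and RPP40, did not pass the test, with differences from -0.07 (RPP30) to 0.27 (POP4). POP1 rose from 20.2 to 25.8 CPM in shGFP to 34.3 to 39.0 CPM in shAURKB (0.65 ± 0.11, adjusted p = 0.00678), RPP38 rose by 0.51 ± 0.11 (adjusted p = 0.0186) and POP7 by 0.35. The RPP38 call was lost in 3 of the 6 fits that left out a library. The m6A demethylase gene ALKBH5 rose by 0.22. METTL16, whose protein binds the MALAT1 triple helix, differed by 0.13 ± 0.30.

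Of 22 genes of nuclear RNA decay, 4 rose, 1 fell and 17 did not pass the test, with a median of 0.21, beside 12.5% and 10.9% of all tested genes called in these directions. The one that fell was ZCCHC8, the scaffold of the nuclear exosome targeting complex, at 102 to 109 CPM in shGFP and 72.3 to 74.0 CPM in shAURKB (-0.52 ± 0.05, edgeR adjusted p = 8.91e-04). MPHOSPH6, EXOSC10, NCBP1 and PABPN1 rose by 0.41, 0.20, 0.24 and 0.30. The MPHOSPH6 call was lost in 4 of the 6 fits that left out a library. Fits that left out 1 library called 1 to 3 genes higher: 1 without shGFP replicate 1, shAURKB replicate 1 or shAURKB replicate 3, 2 without shGFP replicate 2 or 3, and 3 without shAURKB replicate 2.

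The list for OIP5-AS1 held 7 tested genes, of which 2 rose, against 12.5% of all tested genes. A list of 7 is too small to set against this share. ELAVL1, which encodes HuR, was at 171 to 178 CPM in shGFP and 193 to 214 CPM in shAURKB (0.23 ± 0.05, edgeR adjusted p = 0.0161), and the call was lost in 2 of the 6 fits without 1 library. GAK, a cyclin G-associated kinase gene reported as a target of OIP5-AS1, rose by 0.32 ± 0.05 (adjusted p = 0.00500). Both varied little within arms (SD of log2 CPM 0.06 and 0.05), unlike OIP5-AS1 at 1.17. Whether either gene depends on OIP5-AS1 was not tested.

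Of the imprinted region around KCNQ1OT1, 6 listed genes were tested, and 1 rose and 3 fell. Of all tested genes, 12.5% rose and 10.9% fell, and a list of 6 is too small to set against these shares. CARS, the cysteinyl-tRNA synthetase gene, was at 94.0 to 96.0 CPM in shGFP and 52.6 to 57.6 CPM in shAURKB (-0.78 ± 0.05, edgeR adjusted p = 3.72e-04). OSBPL5, a lipid-transfer gene, fell by 0.35 ± 0.05 (adjusted p = 0.00508), and SLC22A18, a transporter gene, by 0.97 ± 0.26 (adjusted p = 0.0383). SLC22A18 had 21 to 63 counts per library, and its call was lost in 5 of the 6 fits that left out a library. CD81, a tetraspanin gene, rose by 0.29 ± 0.04 (adjusted p = 0.00520). A further 12 listed genes were too low to test, 6 of them at 0 in every library. CDKN1C, the growth-restraining gene best known as silenced with KCNQ1OT1, reached at most 14 counts.

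**Figure D4:**
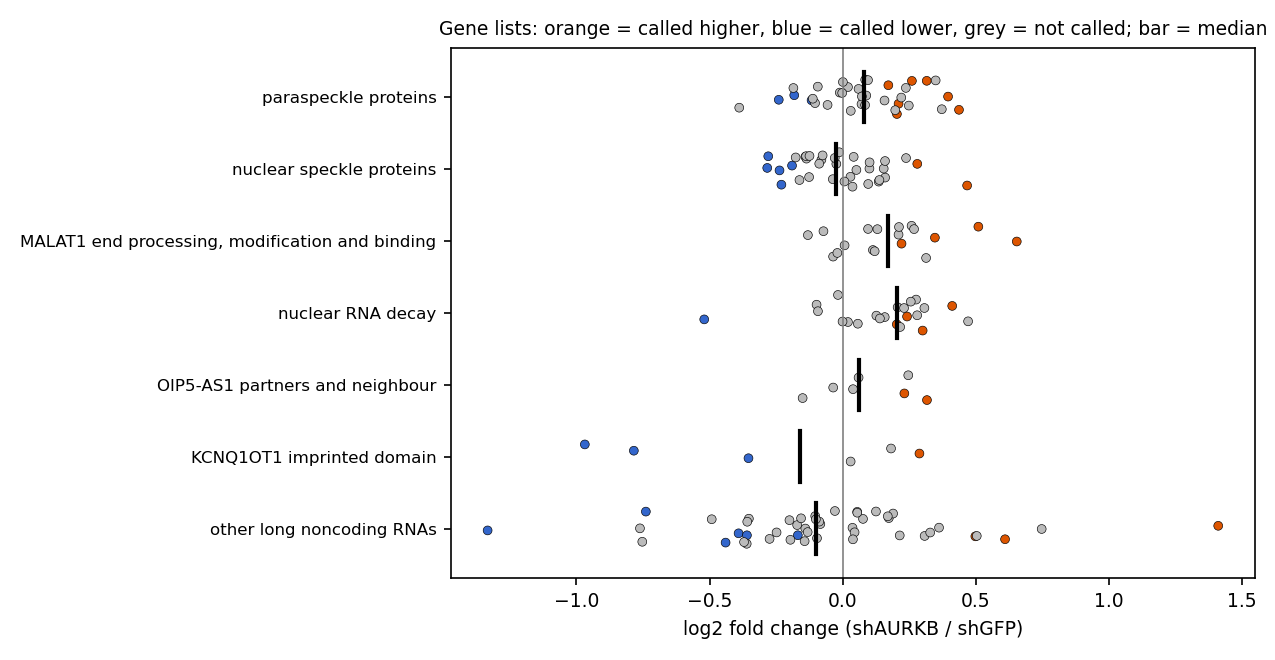
Log2 fold change of each tested gene in 7 lists, 1 point per gene, with the list median as a black bar. Orange points were called higher and blue points lower in shAURKB. List medians run from -0.16 for the KCNQ1OT1 region to 0.21 for nuclear RNA decay, and none of them changed sign under upper-quartile scaling or plain library totals.

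Genes near each RNA were taken within 250 kb of its span. OIP5-AS1 had 11 tested neighbours, of which 0 were called (edgeR; 0 to 1 when a library was left out). OIP5, on the opposite strand and overlapping, had 116 to 177 counts and a log2 difference of 0.25 ± 0.13 (adjusted p = 0.219). Counting with regard to strand is not given in the sources used here, so reads of OIP5 and OIP5-AS1 in the overlap may be assigned to either. CHP1, a calcium-binding protein gene that ends 2100 bases upstream, was at 51.3, 15.6 and 17.5 CPM in shGFP and 33.6, 49.5 and 52.3 CPM in shAURKB. Like OIP5-AS1, it was high in shGFP replicate 1 and shAURKB replicate 2 and low in shGFP replicate 2, but it went the other way in shGFP replicate 3 and shAURKB replicate 3. GENCODE release 29 also places a protein-coding gene, AC087721.2, over OIP5-AS1 on the same strand (chr15:41284013-41380743). The deposited data hold no entry for it at this place, where OIP5 alone overlaps OIP5-AS1, so it could not be analysed here.

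The windows of MALAT1 and NEAT1 largely coincide, with 20 and 19 tested genes, each including the other RNA. FAM89B rose by 0.52 ± 0.11 (edgeR, adjusted p = 0.0170) and SLC25A45 fell by 0.46 ± 0.10 (adjusted p = 0.0161) in both windows, and CAPN1, a calpain protease gene, rose by 0.29 ± 0.06 (adjusted p = 0.0180) in that of NEAT1. These counts are small, 2 of 20 and 3 of 19, below the 23.3% of all tested genes. Leaving out single libraries gave 0 to 4 calls around MALAT1 and 0 to 5 around NEAT1. Around KCNQ1OT1, 4 genes were tested, and CD81 and SLC22A18 were the 2 called.

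**Figure D5:**
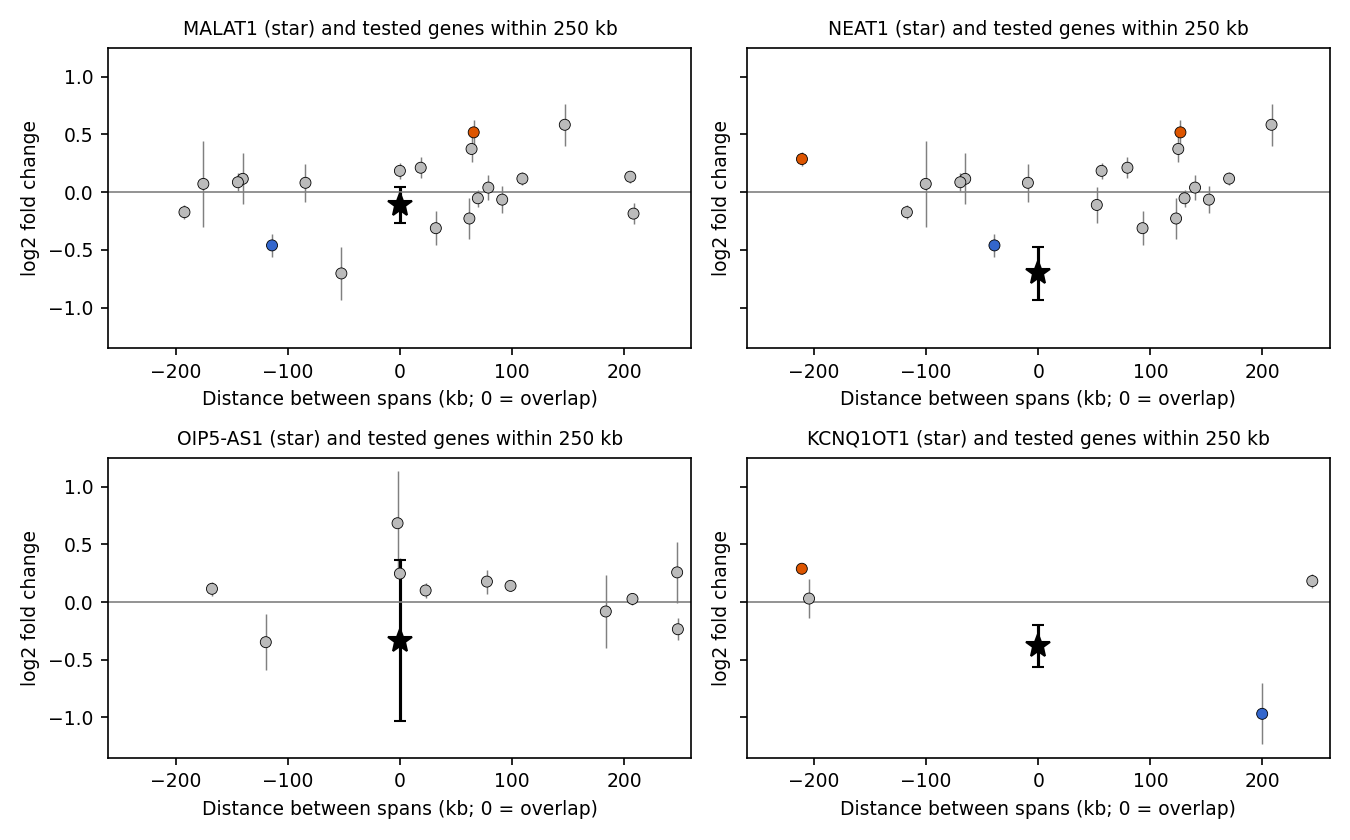
Log2 fold change of tested genes within 250 kb of each RNA against the distance between their spans in kb, with SE bars. The star is the RNA itself, orange points were called higher and blue points lower. No neighbour of OIP5-AS1 was called at an adjusted p below 0.05, and NEAT1, at -0.70, lies below the tested genes around it.

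In the class to which the 4 RNAs belong, smaller shares were called in each direction than among protein-coding genes, a difference that was not tested. Of 2061 tested long noncoding genes, 57 were higher (2.77%) and 187 lower (9.07%), with a median log2 fold change of -0.14. Among 11506 protein-coding genes, 1708 were higher (14.8%) and 1335 lower (11.6%), with a median of 0.01. The 244 calls among long noncoding genes became 135 to 162 when any single library was left out. Long noncoding genes had a median mean level of 3.04 CPM and protein-coding genes one of 36.8 CPM, and the part of this gap in depth in the counts called was not tested. The estimates for NEAT1, KCNQ1OT1 and OIP5-AS1 (-0.70, -0.38 and -0.33) lay below the class median and that of MALAT1 (-0.11) above it.

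Among 47 other genes listed as long noncoding RNAs, 3 rose and 6 fell (edgeR), with a median of -0.10, beside 2.77% and 9.07% of all long noncoding genes. Of the list, ZNRD1-AS1, which was among those that fell (-0.36), and LINC00998 are not long noncoding by the GENCODE definition behind these shares. The 6 became 3 without shAURKB replicate 2 or 3 and 4 without any other library, and the 3 became 1 without shGFP replicate 2. HCP5, an RNA from the HLA region, fell from 7.93, 7.86 and 7.35 CPM to 2.45, 3.41 and 3.32 CPM (-1.33 ± 0.16, adjusted p = 0.00242). LUCAT1 was at 2.93, 0.971 and 1.65 CPM in shGFP and 3.59, 6.34 and 4.93 CPM in shAURKB (1.41 ± 0.38, adjusted p = 0.0388), and that call was lost in 4 of the 6 fits without 1 library. MIR17HG and PVT1 also rose, by 0.61 and 0.50. TUG1, another well-known nuclear RNA, differed by -0.14 and did not pass the test.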

How the data were processed

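RNA-seq of 6 CUTLL1 cultures was used, with groups and replicate numbers from the sample titles. The authors deposited whole-number counts and FPKM for 50868 genes, and all sample columns were mapped. HISAT2 2.0.4, StringTie 1.3.0 and edgeR on GRCh38 (hg38) are named per the submitters' processing notes. The labels and headers do not give strand, multi-mapping or library selection.

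Low genes were removed by filterByExpr (at least 10 counts, total of at least 15), leaving 14818. The arms were tested with edgeR 4.0.16 (R 4.3.3) after TMM scaling (factors 0.979 to 1.02), by its quasi-likelihood test, two-sided. P-values were adjusted by the Benjamini-Hochberg method across the 14818 genes, and a gene was called below 0.05. An adjusted p is from this test where no other tool is named. CPM values are TMM-scaled, except marker sums, which use totals. Alternatives used DESeq2 1.42.0 and limma 3.58.1, including limma-trend on log2(FPKM + 1). The test was checked on simulated counts. Replicates of an arm differed beyond sampling noise (chi-square per degree of freedom 6.33 to 7.27), so none was a copy of another. Intervals cover counting error or replicate spread as stated.

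The 4 RNAs and the gene lists were chosen with earlier results of these data known. The rule for named genes takes AURKB, the 4 RNAs, the 2 called genes of each list with the largest change, called genes within 250 kb (up to 4 per RNA), overlapping genes, and the 3 genes most like each RNA (mean of at least 10 CPM). Other list genes and neighbours were named after their values were seen. Some genes stand in more than 1 list. Long noncoding genes were defined by identifier in GENCODE release 29. A listed gene is not reported here by name.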

Additional observations from a re-analysis of the deposited data

How the results depend on the processing

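The direction of NEAT1 and KCNQ1OT1 was the same under every alternative run. Leaving out single libraries gave log2 fold changes of -0.29 to 0.01 for MALAT1, -0.86 to -0.45 for NEAT1, -0.52 to -0.29 for KCNQ1OT1 and -1.33 to 0.05 for OIP5-AS1. MALAT1 was 0.00652 without shGFP replicate 3, and OIP5-AS1 was 0.00917 without shGFP replicate 1 and 0.0454 without shAURKB replicate 1. The cause was not tested. Of the 4 RNAs, 0 to 1 were called in these fits, and DESeq2 called 1, NEAT1 at -0.70. Over all tested genes, the fits without 1 library, which hold fewer samples, called 1271 to 1336 higher and 998 to 1056 lower, against 1847 and 1609. On log2(FPKM + 1) with no minimum 914 were higher. KCNQ1OT1 gave no value where a minimum of 0.5 FPKM was required, and was -0.03 without it, a scale that understates low genes.

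Under upper-quartile scaling and under plain totals, 38.8% and 39.2% of called genes were higher, against 53.4% with TMM, and the median of all tested genes moved to -0.06. With the replicate block, NEAT1 was at -0.76 (edgeR, adjusted p = 0.0692) and 1027 genes were called lower. Deviations of samples with the same number correlated at -0.0887, -0.0313 and -0.0365, against -0.0276 to 0.0614 for different numbers. They gave no sign of pairing by number, but so few libraries cannot settle whether the numbers mark shared batches. Depth limits KCNQ1OT1, at 47 to 78 counts per library. For OIP5-AS1 the spread between replicates is the limit.

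Among lists, the counts given next were among those that moved by over 1.5 times over all alternatives. RNA decay genes called higher numbered 0 to 5, against 4 in the edgeR fit. Genes of MALAT1 end processing, modification and binding called higher numbered 1 to 5, against 4. Genes called lower numbered 1 to 5 for paraspeckles, against 3, and 1 to 7 for nuclear speckles, against 5. Other long noncoding RNAs numbered 0 to 3 higher, against 3, and 3 to 7 lower, against 6. Called long noncoding genes numbered 131 to 342, against 244.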

Other observations

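The lengths by which the deposited FPKM values were divided differ from single transcripts for 3 of the 4 RNAs. The implied length was 16890 bases for MALAT1, whose gene spans 8755 bases, and 26096 for NEAT1, which spans 22767. It was 15162 for OIP5-AS1, whose longest GENCODE release 29 transcript has 8829 bases, and 91667 for KCNQ1OT1, equal to its span. With the longest transcript as the length, chosen as an alternative after the data were seen, the levels recomputed on the FPKM scale were 22.9 for MALAT1, 12.4 for OIP5-AS1, 6.26 for NEAT1 and 0.0629 for KCNQ1OT1. The order of the 4 means was the same on both scales.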
